A study of Mus musculus with 20 samples.

Results

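The genes described here are 10 genes of the distal convoluted tubule, the short stretch of the kidney tubule that lies beyond the macula densa. They were taken by name, not by their values: Slc12a3, Pvalb, Trpm6, Calb1, Slc8a1, Klhl3, Trpv5, Wnk1, Wnk4 and Stk39. They are 10 of 26608 named genes in a count table of Control and LOY kidneys and 10 of 30809 in a count table of an ABT-263 experiment. All 10 passed the filter on low counts in both tables, which left 14978 and 16956 genes to test.

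The RNA was total RNA of whole kidneys from aged mice that had received a bone marrow transplant. The transplant gave either a Control blood system or one with loss of the Y chromosome, abbreviated LOY. One table holds 6 Control and 6 LOY kidneys. The other holds 4 kidneys of LOY mice given a control compound and 4 of LOY mice given ABT-263 (navitoclax), a BCL-2 family inhibitor used to remove senescent cells. All mice were thus transplanted, and every mouse of the ABT-263 table was LOY, so that table has no kidney with a Control blood system. The labels do not state the strain, the age in months, the way the Y chromosome was lost or the dose of ABT-263. Each library carries an animal number, and the groups compared share none. Animal numbers 8, 9, 10, 16, 17 and 18 occur in both tables, and the labels do not say whether they are the same mice.

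The distal convoluted tubule takes up sodium chloride through the thiazide-sensitive cotransporter NCC, the product of Slc12a3. The WNK kinases, encoded here by Wnk1 and Wnk4, activate the kinase SPAK (Stk39), which phosphorylates NCC, and KLHL3 marks WNK kinases for degradation as part of a cullin ubiquitin ligase. In humans, loss of SLC12A3 function causes Gitelman syndrome, and mutations of WNK1, WNK4 or KLHL3 cause a salt-sensitive hypertension with high potassium. The segment also sets the final magnesium uptake through TRPM6. Its late part and the connecting tubule take up calcium through TRPV5, buffer it with calbindin (Calb1) and pass it to the blood through the sodium-calcium exchanger of Slc8a1. Parvalbumin (Pvalb) is a calcium buffer of the early part of the segment and also of fast skeletal muscle. Wnk1 and Stk39 are expressed in many other kidney cells, so in whole kidney their reads are not those of the distal convoluted tubule alone.

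The sequence upstream of a pair of the genes is shown because the pair stands for opposite ends of the set. Slc12a3 had the highest level per length in both tables and defines the segment, and Klhl3 had, in the table of Control and LOY kidneys, the lowest level per length and the largest difference between the groups. Both are the 250 bases before the transcription start annotated by RefSeq on GRCm38.p6, 5′ to 3′ on the gene's own strand. The Slc12a3 window is chr8:94328958-94329207 on the plus strand and the Klhl3 window is chr13:58113648-58113897 on the minus strand. Capitals mark the letters TATAAA, the core of a TATA box.
Slc12a3: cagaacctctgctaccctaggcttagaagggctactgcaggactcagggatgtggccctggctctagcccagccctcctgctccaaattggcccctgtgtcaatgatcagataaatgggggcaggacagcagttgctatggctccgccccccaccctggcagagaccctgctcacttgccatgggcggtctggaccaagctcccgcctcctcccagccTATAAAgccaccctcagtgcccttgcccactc
Klhl3: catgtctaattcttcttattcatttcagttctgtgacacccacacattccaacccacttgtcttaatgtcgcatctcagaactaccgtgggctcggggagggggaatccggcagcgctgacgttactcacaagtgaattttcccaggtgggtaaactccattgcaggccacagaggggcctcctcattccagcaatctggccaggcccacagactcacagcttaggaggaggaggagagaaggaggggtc

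RefSeq windows were at hand for 9 of the 10 genes, in 10 windows because Pvalb had 2. No window of Calb1 was at hand. The letters TATAAA, searched on both strands, were in 2 of the 10 windows, those of Slc12a3 and Trpv5, and in 12.4% of the 32851 windows of all genes. In Slc12a3 they began 32 bases before the RefSeq start and in Trpv5 43 bases before it. The GENCODE annotation starts Trpv5 further upstream, at chr6:41680769 on the minus strand, so there the letters lie inside the gene. The letters GTTAAT (part of the site of HNF1), AGAACA (of steroid receptors) and AGGTCA (of the vitamin D receptor) were searched the same way and were in none of the 10 windows, against 6.43%, 16.1% and 14.0% of all windows. The windows of the genes ranged from 50.4% GC in Slc8a1 to 82.4% in Stk39, and the median of all windows was 52.4%.

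In the GENCODE annotation of GRCm38, Slc12a3 is at chr8:94329201-94366214 on the plus strand, Trpm6 at chr19:18749983-18892511 plus, Calb1 at chr4:15881264-15908064 plus and Wnk4 at chr11:101260567-101277409 plus. The genes on the minus strand are Pvalb at chr15:78191114-78206400, Slc8a1 at chr17:81373105-81738377, Klhl3 at chr13:58000228-58113592, Trpv5 at chr6:41652173-41680769, Wnk1 at chr6:119923969-120038672 and Stk39 at chr2:68210445-68472268. All are protein-coding. Exons of Slc8a1 overlap the antisense gene AC122399.1 over 296 bases and Gm11096 over 8 bases, and exons of Wnk4 overlap the antisense gene Gm11615 over 306 bases. Whether counting used the strand is not given in the sources used here, so reads of those stretches cannot be assigned to a strand. Wnk1 has 26 annotated transcripts, among them a short form without kinase domain that is specific to kidney, and gene counts do not separate them.

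Total gene counts were 13332563 to 19386408 per kidney in the LOY table and 14587809 to 20791633 in the ABT-263 table. A pair of libraries stood apart. LOY animal 8 had a mean correlation of 0.912 with the other kidneys of its table, against 0.952 to 0.971 for the rest. In that kidney, genes whose longest coding transcript had 5000 bases or more were low relative to those under 2000 bases: the median log2 deviations differed by −1.02, against −0.264 to 0.286 in the other 11 kidneys. ABT-263 animal 16 had 735 CPM (counts scaled to a common total, with TMM scaling between kidneys) of the tubular injury marker Havcr1, against 28.1 to 119 in the other 7 kidneys of its table. Its markers of tubular injury summed to 21370 CPM, against 1940 to 4244 CPM in the others. In the LOY table, animal numbers also fell unevenly between the groups: 1 Control kidney and 4 LOY kidneys had numbers of 10 or below. The difference between long and short genes split by that number. It was 0.143 to 0.286 in every kidney of that table numbered above 10. In every kidney numbered 10 or below it was negative, from −1.02 in LOY animal 8 to −0.0043 in LOY animal 10. In the ABT-263 table all control-compound kidneys had numbers of 10 or below and all ABT-263 kidneys numbers above it, so number and treatment cannot be told apart there. What the number stands for is not given.

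Levels of the genes relative to each other were compared as CPM per kilobase (kb) of the longest coding transcript. In Control kidneys Slc12a3 was highest at 158 ± 35.8 CPM per kb (SD, n = 6), followed by Wnk4 at 76.5 ± 8.25, Calb1 at 52.4 ± 11.9, Wnk1 at 31.5 ± 3.89 and Stk39 at 12.9 ± 1.99. The lower 5 were Pvalb at 7.10 ± 2.01 CPM per kb, Slc8a1 at 4.20 ± 0.879, Trpv5 at 4.08 ± 0.611, Trpm6 at 2.60 ± 0.710 and Klhl3 at 1.56 ± 0.454. Neighbours in that order overlapped between Wnk4 and Calb1 and in each step from Pvalb down to Klhl3, and the other steps were without overlap. The mRNA of the salt cotransporter thus stood above those of the magnesium and calcium channels in every Control kidney. The place of Slc8a1 in the order rests on division by a longest coding transcript of 18464 bases. Its mean in Control kidneys was 77.6 CPM before that division, against 13.2 CPM for Trpv5. In LOY kidneys the order was the same, except that Trpv5 at 3.42 ± 1.44 CPM per kb stood above Slc8a1 at 2.90 ± 0.660, with overlapping ranges. In the control-compound kidneys of the other table Slc12a3 was again highest at 276 ± 42.0 CPM per kb (SD, n = 4) and Trpm6 lowest at 2.86 ± 0.792. Klhl3 there was at 8.40 ± 1.39 CPM per kb, above Slc8a1 at 7.99 ± 1.06, Trpv5 at 6.76 ± 0.910 and Pvalb at 5.39 ± 1.20, with overlap in each of those steps. The tables were counted and scaled apart, so their levels were not tested against each other. The lowest place of Klhl3 was found in the LOY table only.

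The comparison of LOY with Control kidneys addressed how a blood system without the Y chromosome relates to gene expression in the kidney. Of the 10 genes, 9 had a lower fitted level in LOY kidneys and Stk39 had a log2 difference of 0.01. Their median log2 fold change was −0.48, against 0.02 over all genes tested, of which 47.7% were lower. None of the 10 passed the threshold of an adjusted p of 0.05 in edgeR's quasi-likelihood test, where 1.18% of all genes tested passed in either direction and 0.0601% passed as lower. At an unadjusted p under 0.05, 7 of the 10 were lower, against 9.33% of all genes tested. With the animal number above 10 as a term in the model, none of the 10 had an unadjusted p under 0.05, while 1194 genes of the table did. Among animals numbered above 10 alone (5 Control and 2 LOY kidneys), 6 of the 10 were lower at an unadjusted p under 0.05. There 1063 of 15582 genes tested were lower at that p, and none of the 10 passed the threshold. With all kidneys and without that term, 167 of all genes passed as higher and 9 as lower. In bulk RNA, fewer cells of a segment and less RNA per cell cannot be told apart, for these genes or for any named below.

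**Figure D1:**
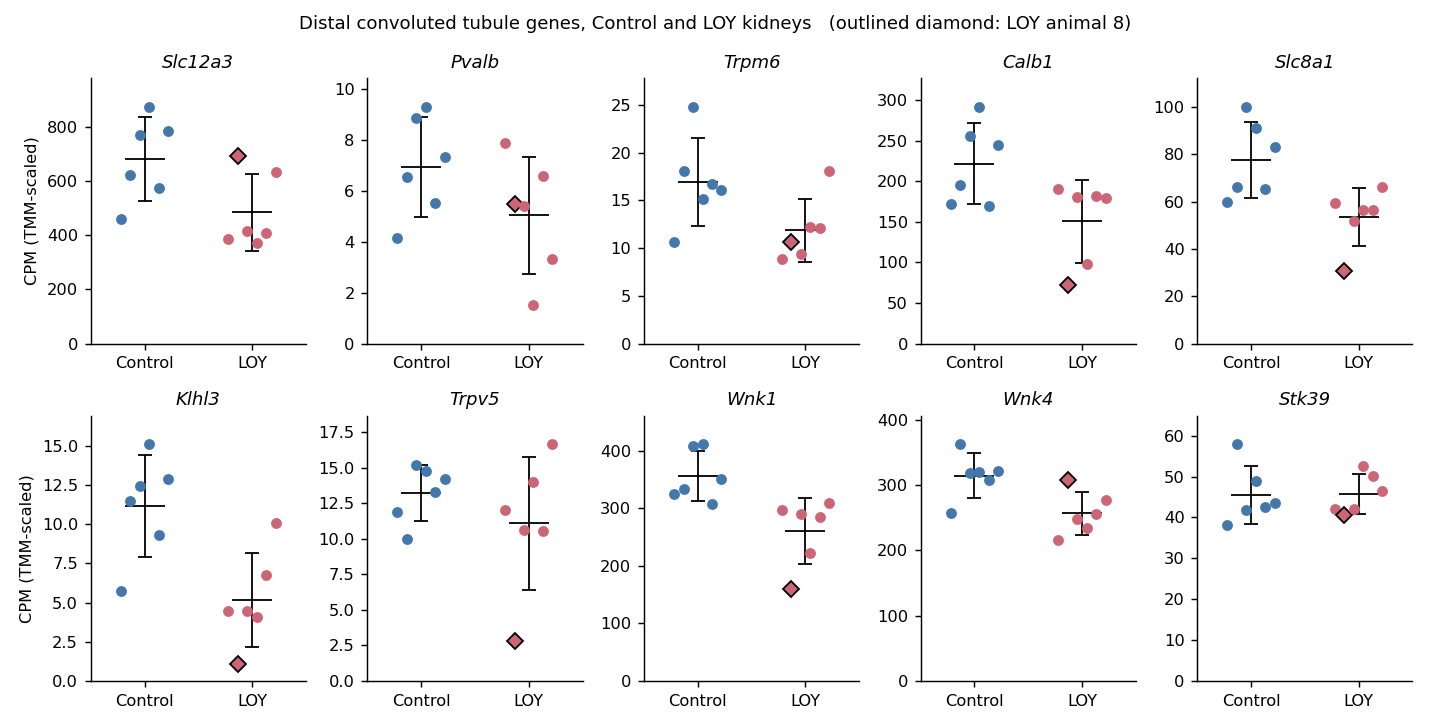
CPM on TMM-scaled totals (linear axes from 0) of the 10 genes in each Control and LOY kidney; horizontal bars are means and whiskers 1 SD, n = 6 per group. The groups overlap for all 10 genes, and LOY animal 8, outlined, is high for Slc12a3 and Wnk4 and the lowest of the 12 kidneys for Calb1, Slc8a1, Klhl3, Trpv5 and Wnk1.

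Slc12a3, the sodium chloride entry path, was at 459 CPM in the lowest Control kidney, 695 at the median and 873 in the highest. In LOY kidneys it was at 371 CPM in the lowest, 410 at the median and 692 in the highest. All 6 LOY kidneys were under the Control median, 4 were under the lowest Control kidney, and LOY animals 8 and 18 lay within the Control range. The mean was 680 ± 154 CPM (SD, n = 6) in Control and 484 ± 141 CPM in LOY kidneys. The log2 fold change was −0.49 ± 0.20 (SE), which did not pass (edgeR adjusted p = 0.174). Without LOY animal 8 it was −0.62 (edgeR adjusted p = 0.0856).

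The kinases upstream of NCC had smaller spreads between kidneys. Wnk4 was at 257, 320 and 363 CPM (lowest, median and highest) in Control kidneys and at 215, 253 and 308 CPM in LOY kidneys, a log2 fold change of −0.29 ± 0.11 (SE; edgeR adjusted p = 0.167). For Wnk4, 4 of 6 LOY kidneys lay under the lowest Control kidney. Wnk1 was at 307, 343 and 412 CPM in Control kidneys and at 161, 288 and 310 CPM in LOY kidneys, a log2 fold change of −0.45 ± 0.15 (SE; edgeR adjusted p = 0.140). For Wnk1, 5 of 6 LOY kidneys lay under the lowest Control kidney, and only LOY animal 18, at 310 CPM, reached the Control range. Stk39, the kinase that acts on NCC itself, was at 38.2, 43.0 and 57.9 CPM in Control and at 40.7, 44.3 and 52.5 CPM in LOY kidneys. Its groups overlapped throughout, with a log2 fold change of 0.01 ± 0.11 (SE; edgeR adjusted p = 0.981), and the sign turned to −0.00456 under median-ratio scaling.

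Klhl3, the adaptor that delivers WNK kinases to ubiquitination, had the largest difference of the 10 and, in LOY animal 8, the lowest count of any of them in this table. In Control kidneys it was at 5.77, 11.9 and 15.1 CPM (lowest, median and highest), from 78 to 231 counts. In LOY kidneys it was at 1.11, 4.48 and 10.1 CPM, from 15 to 208 counts. Again 4 of 6 LOY kidneys were under the lowest Control kidney, while LOY animals 14 and 18 were at 6.74 and 10.1 CPM. The log2 fold change was −1.10 ± 0.36 (SE; edgeR adjusted p = 0.133). It was −0.90 without LOY animal 8, whose 15 counts were the fewest, and −0.53 among animals numbered above 10 (5 Control and 2 LOY kidneys). DESeq2 gave −1.12 with an adjusted p of 0.0377, so that this gene passed there.

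Among the calcium genes, Slc8a1, the basolateral exchanger, had the lowest p of the 10. It was at 60.0, 74.7 and 100.1 CPM in Control kidneys and at 30.6, 56.4 and 66.4 CPM in LOY kidneys. Of the LOY kidneys, 5 of 6 were under the lowest Control kidney and animal 18 was above it. The log2 fold change was −0.54 ± 0.17 (SE), with an unadjusted p of 0.00751 in edgeR and an adjusted p of 0.127.

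Calb1, the cytosolic calcium buffer, was at 169, 220.1 and 291 CPM in Control kidneys and at 72.4, 180 and 191 CPM in LOY kidneys. Its LOY kidneys formed no single level: animals 8 and 10 were at 72.4 and 98.4 CPM and the other 4 at 179 to 191 CPM, inside the Control range. The log2 fold change was −0.56 ± 0.23 (SE; edgeR adjusted p = 0.183), and −0.29 without animals 8 and 10 together, an omission chosen after seeing the data. Pvalb, the buffer of the early segment, was at 4.14, 6.92 and 9.28 CPM in Control and at 1.53, 5.43 and 7.85 CPM in LOY kidneys, with 27 counts in the lowest. The low LOY values were animals 10 and 18, and the other 4 lay within the Control range, with a log2 fold change of −0.47 ± 0.32 (SE; edgeR adjusted p = 0.364), and −0.30 without LOY animal 10.

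Trpv5, the apical calcium channel, was at 9.96, 13.7 and 15.2 CPM in Control kidneys. In LOY kidneys it was at 2.81, 11.3 and 16.7 CPM, so that LOY animal 8 was the lowest and LOY animal 18 the highest of all 12 kidneys. The log2 fold change was −0.25 ± 0.29 (SE; edgeR adjusted p = 0.599), −0.05 without LOY animal 8 and −0.41 without LOY animal 18. Trpm6, the apical magnesium channel, was at 10.6, 16.4 and 24.8 CPM in Control and at 8.90, 11.4 and 18.1 CPM in LOY kidneys. For Trpm6, 2 of 6 LOY kidneys were under the lowest Control kidney and LOY animal 18 was above the Control median, with a log2 fold change of −0.50 ± 0.20 (SE; edgeR adjusted p = 0.181).

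The same kidneys recurred at the ends of the ranges. Control animal 3, the only Control kidney numbered 10 or below, was the lowest Control kidney for 7 of them: Slc12a3, Pvalb, Trpm6, Slc8a1, Klhl3, Wnk4 and Stk39. LOY animal 18, numbered above 10, was the highest LOY kidney for 5, namely Trpm6, Slc8a1, Klhl3, Trpv5 and Wnk1. LOY animal 8 was the lowest of all 12 kidneys for 5 and the highest LOY kidney for Slc12a3 and Wnk4. In that kidney the log2 deviations from the table mean were −2.48 for Klhl3, −1.96 for Trpv5, −1.27 for Calb1 and −1.04 for Slc8a1, but 0.31 for Slc12a3 and 0.12 for Wnk4.

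**Figure D2:**
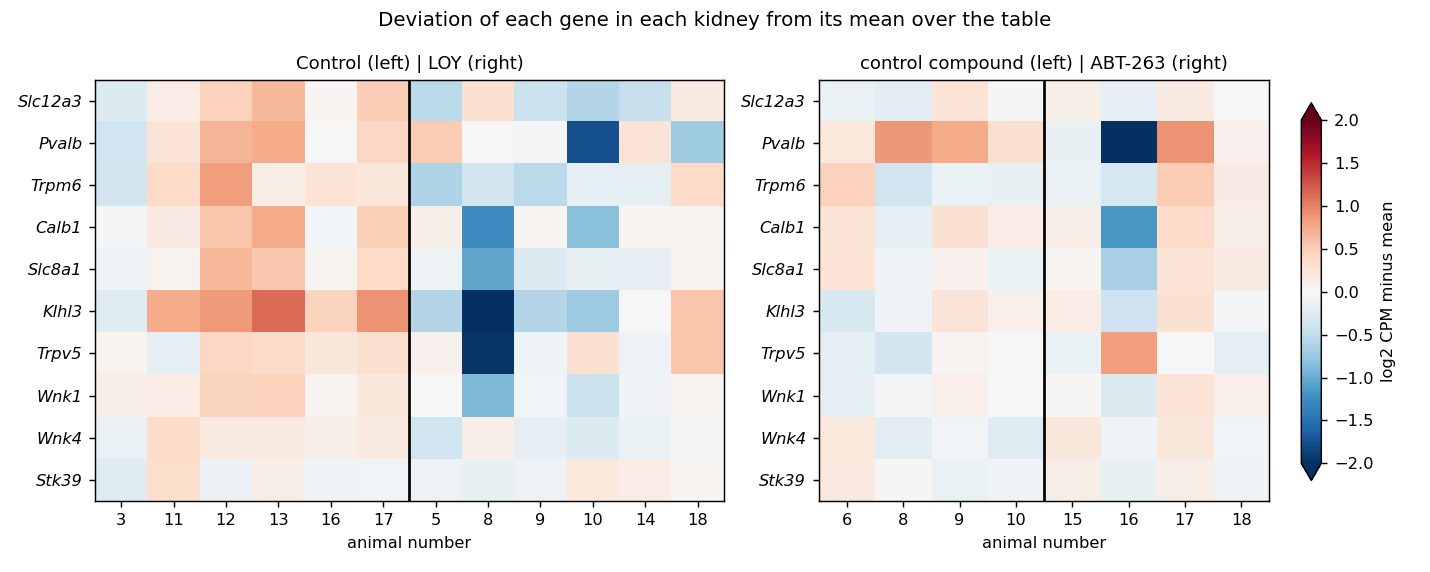
Log2 CPM of each gene minus its mean over the kidneys of the same table (colour, from −2 in blue to 2 in red; values beyond are shown at the ends), with one column per kidney and a vertical line between the groups. LOY animal 8 and ABT-263 animal 16 stand out in blue for several genes, and Stk39 varies little in both tables.

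Transcript length moved with the LOY difference, and 4 of the 10 genes (Slc8a1, Wnk1, Klhl3 and Trpm6) belong to the long class of 5000 bases or more. The 2705 long genes had a median log2 fold change of −0.14, and 69.9% of them were lower. The 3080 short genes, under 2000 bases, had a median of 0.21 with 25.6% lower. Without LOY animal 8 these medians were −0.08 and 0.10, and among animals numbered above 10 they were −0.02 and −0.00. Slc12a3, Wnk4, Calb1, Trpv5 and Stk39, of 4310, 4117, 4222, 3243 and 3536 bases, belong to the middle class, whose median was 0.00. The log2 fold changes of these 5 ran from −0.56 in Calb1 to 0.01 in Stk39. Pvalb, of 977 bases, belongs to the short class. The part of transcript length in the differences of the 10 genes was not tested.

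The choice of kidneys moved the sizes more than the signs. Without LOY animal 8, 9 of 10 genes were lower with a median log2 fold change of −0.42. Among animals numbered above 10, 8 of 10 were lower with a median of −0.33. There Slc12a3 was at −0.48 (edgeR adjusted p = 0.304), Wnk4 at −0.29 (edgeR adjusted p = 0.106), Trpm6 at −0.25 (edgeR adjusted p = 0.602), Calb1 at −0.36 (edgeR adjusted p = 0.430) and Wnk1 at −0.29 (edgeR adjusted p = 0.225). With the number above 10 as a term in the model, 9 of 10 were lower with a median of −0.31, and no gene of the table passed. In that fit Slc12a3 was at −0.31 (edgeR adjusted p = 0.816), Trpm6 at −0.19 (edgeR adjusted p = 0.879), Klhl3 at −0.59 (edgeR adjusted p = 0.643) and Pvalb at −0.31 (edgeR adjusted p = 0.915). Leaving out LOY animal 8 together with Control animal 3, which were the lowest of their groups for 6 and 7 of the genes, was tried after seeing the data. Without its lowest kidney the Control level of those 7 genes rises by construction, so the p values of that fit do not test them. The omission also left only Control kidneys numbered above 10, beside LOY kidneys on both sides of that number. In that fit 4 of the 10 passed: Slc12a3 at −0.71 (edgeR adjusted p = 0.0193), Klhl3 at −1.03 (edgeR adjusted p = 0.0211), Wnk4 at −0.40 (edgeR adjusted p = 0.0235) and Slc8a1 at −0.48 (edgeR adjusted p = 0.0292), while 1121 genes of the whole table passed.

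**Figure D3:**
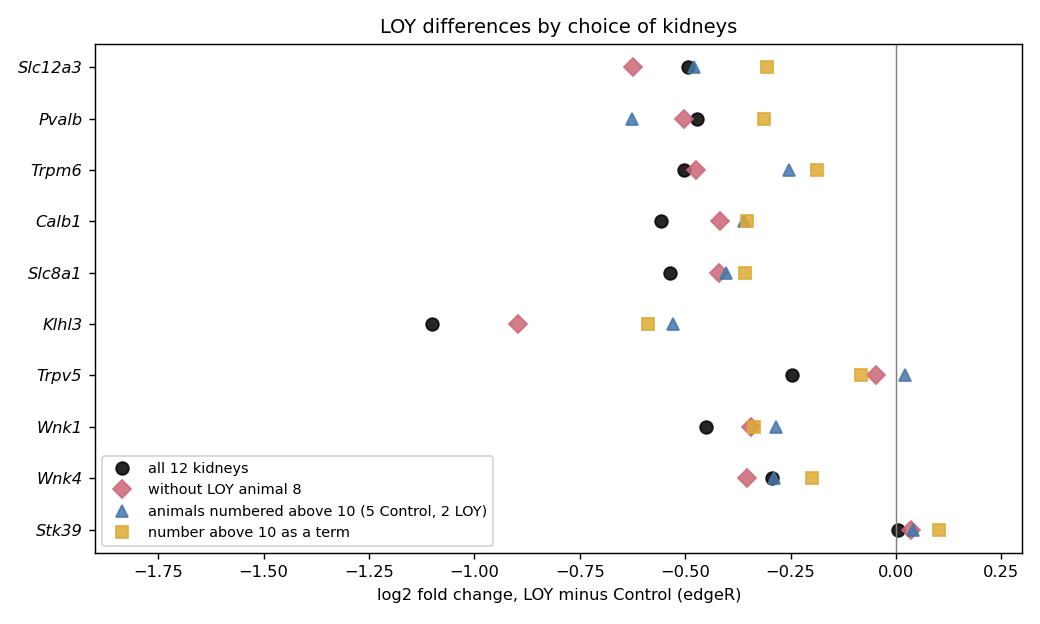
Log2 fold change, LOY minus Control, of each gene with all 12 kidneys, without LOY animal 8, among the 7 animals numbered above 10, and with the number above 10 as a model term. All points except those of Stk39 and 1 of Trpv5 lie below 0, and Klhl3 moves most, from −1.10 to −0.53.

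How the genes varied together was described by the correlation of each with Slc12a3 over the 12 kidneys of the LOY table, in log2 CPM, for 9 genes. The permutations mixed Control and LOY kidneys freely. Their p therefore does not separate varying together from a difference between the groups that both genes share. Over all 12 kidneys together, Wnk4 followed Slc12a3 most closely, with a Pearson r of 0.857 (permutation p = 0.00077, Benjamini-Hochberg adjusted over 9 relations 0.00693). Its Spearman rho was 0.86 (permutation p = 0.00055, adjusted 0.00495). Without the 2 kidneys farthest from the median of Slc12a3, LOY animals 10 and 5, r was 0.782. It was 0.591 within Control, 0.901 within LOY kidneys and 0.624 among the 7 animals numbered above 10. Among those 7, r was higher for Klhl3 (0.981), Slc8a1 (0.894), Wnk1 (0.882) and Calb1 (0.812). With LOY animal 8 left out, r was 0.852 for Wnk4, below Klhl3 at 0.964 and Slc8a1 at 0.909, so the order depended on that kidney. No other gene passed by Pearson r. Trpm6 came next with an r of 0.684 (permutation p = 0.0156, adjusted 0.0702) and a rho of 0.545.

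Klhl3, Slc8a1 and Wnk1 passed by rank only. Their rho was 0.706, 0.664 and 0.685, each with an adjusted permutation p of 0.0485, and their Pearson r was 0.428, 0.425 and 0.364. Without LOY animal 8, r was 0.964 for Klhl3, 0.909 for Slc8a1 and 0.852 for Wnk1. Within Control kidneys r was 0.958 for Klhl3, 0.901 for Slc8a1 and 0.801 for Wnk1, and within LOY kidneys it was −0.319, −0.512 and −0.437. Calb1 had an r of 0.365 over all kidneys and 0.772 without LOY animal 8. Pvalb had an r of 0.495 over all kidneys, 0.969 within Control and 0.05 within LOY kidneys. Trpv5 had an r of −0.0265 over all kidneys, 0.535 without LOY animal 8, 0.629 within Control and −0.542 within LOY kidneys. Stk39 had an r of −0.0222 over all kidneys and 0.0414 without LOY animal 8. Over all genes outside the lists with a mean of at least 1 CPM, the 5 most like Slc12a3 over the 12 kidneys were Sema3b (r = 0.948), Bmp7 (0.924), Vipar (0.919), Lrrc61 (0.912) and Tmem9 (0.896), given as a description because they were picked for that likeness.

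None of the other genes of these pathways passed in edgeR in the LOY comparison. At an unadjusted p under 0.05 stood 4 of the 23 other NCC regulators, 4 of the 13 calcium genes and 4 of the 13 magnesium genes, against 22.8% of all genes tested in either direction. DESeq2, which called 866 genes in all, called 0, 3 (S100a10, Vdr and Kl) and 1 (Trpm7) of them. Of 23 other regulators of NCC, 16 were negative and 7 positive, with a median log2 fold change of −0.19. The lowest p values were those of Sorl1, a sorting receptor, at −0.58 ± 0.20 (SE), Rbx1, the RING subunit of cullin ligases, at 0.46 ± 0.19, and the kinase Sgk3 at −0.33 ± 0.14. Of 13 other calcium transport genes, 7 were negative and 6 positive, with a median of −0.03. They were led by S100a10, an annexin partner that binds TRPV5, at 0.98 ± 0.26, the vitamin D receptor Vdr at −0.44 ± 0.13 and Kl, which encodes klotho, at −0.69 ± 0.23. Of 13 tested magnesium genes, 9 were negative, with a median of −0.23. Egf, whose product raises TRPM6 activity and is made in the distal convoluted tubule, was at −1.01 ± 0.37, its receptor Egfr at −0.29 ± 0.11 and the channel kinase Trpm7 at −0.52 ± 0.16. Egf was at 312 to 1376 CPM in Control and 223 to 783 CPM in LOY kidneys, with Control animals 3 and 16 the lowest Control kidneys at 312 and 499 CPM.

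Other markers of the segment and of its neighbours had no call in edgeR either. At an unadjusted p under 0.05 stood 6 of 11 further markers of the distal convoluted tubule, 1 of 7 of the thick ascending limb, 1 of 10 of principal cells, 4 of 12 of intercalated cells and 8 of 13 of the proximal tubule, beside the 22.8% of all genes. DESeq2 called Hoxb9 among them, and Slc5a12, Slc5a2 and Cubn of the proximal tubule. Of 11 tested further markers of the distal convoluted tubule, 7 were negative and 4 positive with a median of −0.05, among them Hoxb9 at 0.55 ± 0.15 (SE) and Tmem52b at −0.53 ± 0.20. Their summed level was 879 to 2089 CPM (median 1678) in Control and 850 to 1450 CPM (median 947) in LOY kidneys, so the groups overlapped. Egf is also on this list, and its share of the sum varied. It was 1376 of 2089 CPM in Control animal 12 and 223 of 850 CPM in LOY animal 8. Of 7 tested markers of the thick ascending limb, 5 were negative with a median of −0.19, among them Ptger3 at −0.49 ± 0.30, Cldn16 at 0.50 ± 0.19 and Cldn19 at 0.24 ± 0.14. Principal and connecting tubule markers, 10 tested, had a median of 0.04, with Fxyd4 at 0.66 ± 0.30, Gata3 at 0.33 ± 0.23 and Scnn1g at −0.17 ± 0.11. Intercalated cell markers were negative in 9 of 12 with a median of −0.14, with Slc26a4 (pendrin) at −0.50 ± 0.18, Slc4a1 at −0.41 ± 0.16 and Atp6v1b1 at −0.29 ± 0.12. Proximal tubule markers were negative in 12 of 13 with a median of −0.50, led by Slc5a12 at −1.17 ± 0.29, Slc5a2 at −0.74 ± 0.24 and Cubn at −0.54 ± 0.17. The median of the 10 genes was thus near that of the proximal tubule markers, and the difference between the lists was not tested.

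Markers of tubular injury and of macrophages differed the other way between the same 2 groups. Within the LOY group the kidneys did not line up so simply. LOY animal 10, with the highest summed injury markers at 9101 CPM, was the lowest LOY kidney for Slc12a3 and Pvalb. LOY animal 18, at 6462 CPM, was the highest LOY kidney for 5 of the 10 genes. Of 10 injury markers all were positive with a median log2 fold change of 1.35, and 7 rose: Krt20 (2.49 ± 0.56, SE), Lcn2 (2.14 ± 0.45), Sox9 (1.72 ± 0.35), Havcr1 (1.56 ± 0.33), Cd44 (1.33 ± 0.21), Vcam1 (1.30 ± 0.22) and Spp1 (1.25 ± 0.24). Their edgeR adjusted p ranged from 0.0230 in Cd44 to 0.0457 in Krt20. Of 10 macrophage markers all were positive with a median of 1.08, and 6 rose: Lyz2, C1qa, Fcgr3, Ctss, C1qc and Cd74, with log2 fold changes from 0.93 in Cd74 to 1.21 in Lyz2. Of all 14978 genes tested, 167 passed as higher. These calls depended on the fit: 0 genes of the table passed with the animal number above 10 as a term. The count was also 0 without Control animal 16 or 17, and 1 without LOY animal 10. The summed injury markers were at 1930 to 3822 CPM in Control and 3764 to 9101 CPM in LOY kidneys, and Control animal 3 was the highest Control kidney. Summed macrophage markers were at 498 to 887 CPM in Control and 994 to 1478 CPM in LOY kidneys, without overlap, and no marker was at 0 in every kidney of a group. Their part in the lower levels of the distal convoluted tubule genes was not tested.

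Muscle and vessel markers had no call in edgeR or DESeq2, and 1 of 3 skeletal muscle, 2 of 8 smooth muscle and 1 of 8 endothelial markers tested had an unadjusted p under 0.05, beside the 22.8% of all genes. Skeletal muscle markers, of interest beside Pvalb, summed to 4.18 to 7.04 CPM in Control and 2.81 to 12.6 CPM in LOY kidneys, and 3 of 10 passed the low-count filter, with Mylpf at 0.89 ± 0.41 (SE), Actn3 at −0.86 ± 0.41 and Atp2a1 at 0.13 ± 0.52. Of these markers, 1 was at 0 in every Control kidney and 2 in every LOY kidney. Smooth muscle and mural markers, 8 tested, had a median of 0.42, with Acta2 at 0.59 ± 0.25, Tagln at 0.54 ± 0.26 and Des at 0.50 ± 0.21. Endothelial markers, 8 tested, had a median of −0.07, with Kdr at −0.39 ± 0.18, Flt1 at −0.30 ± 0.17 and Ehd3 at 0.23 ± 0.12.

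The comparison of ABT-263 with control compound addressed what a senolytic treatment changes in kidneys of LOY mice. None of the 10 genes passed, and none had an unadjusted p under 0.05. Neither did any of the 16956 genes tested pass in edgeR (0%), while 1002 of them (5.91%) had an unadjusted p under 0.05 and DESeq2 called 44. Of the 10 genes 7 were positive and 3 negative, with a median log2 fold change of 0.04, against −0.00 over all genes. No gene of the 10 had groups without overlap, against 4.29% of all genes in this table and 2.02% in the LOY table.

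**Figure D4:**
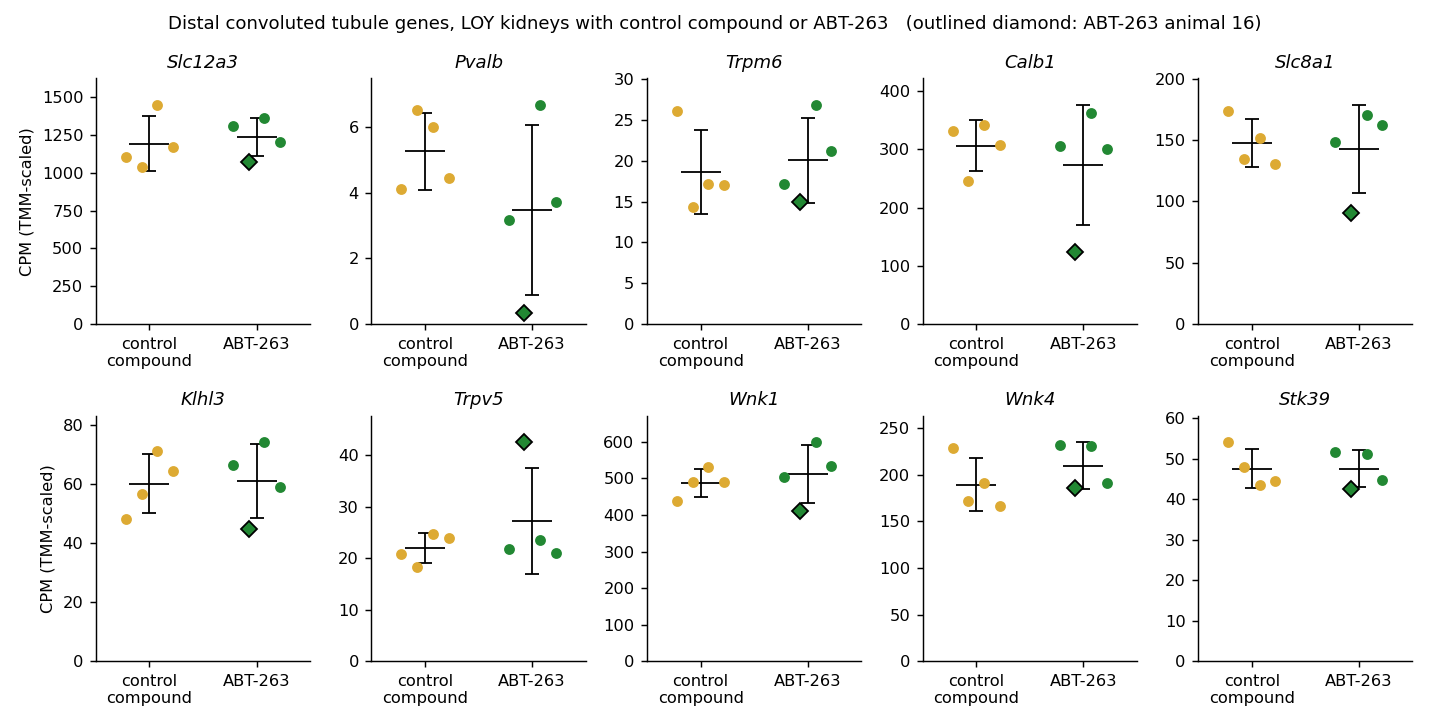
CPM on TMM-scaled totals (linear axes from 0) of the 10 genes in each LOY kidney given control compound or ABT-263; horizontal bars are means and whiskers 1 SD, n = 4 per group. ABT-263 animal 16, outlined, is the lowest ABT-263 kidney for 9 genes and the highest of all 8 kidneys for Trpv5.

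Slc12a3 was at 1105, 1036, 1449 and 1172 CPM in control-compound animals 6, 8, 9 and 10, and at 1310, 1071, 1358 and 1202 CPM in ABT-263 animals 15, 16, 17 and 18. All ABT-263 kidneys lay within the control-compound range, with a log2 fold change of 0.05 ± 0.12 (SE; edgeR adjusted p = 0.964). In the same order of animals, Wnk4 was at 229, 171, 191 and 166 CPM with control compound and at 232, 186, 231 and 190.4 CPM with ABT-263. ABT-263 animals 15 and 17 were just above the highest control-compound kidney, with a log2 fold change of 0.15 ± 0.12 (SE; edgeR adjusted p = 0.868). Wnk1 was at 438, 491, 531 and 492 CPM and at 505, 410, 599 and 533 CPM, a log2 fold change of 0.07 ± 0.12 (SE; edgeR adjusted p = 0.948). For Wnk1, ABT-263 animal 16 was the lowest and animal 17 the highest of the 8 kidneys.

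Klhl3 was at 48.0, 56.7, 71.2 and 64.4 CPM with control compound and at 66.3, 44.7, 74.1 and 59.0 CPM with ABT-263, from 774 to 1432 counts over both groups. Both groups spanned a similar range, with a log2 fold change of 0.02 ± 0.16 (SE; edgeR adjusted p = 0.992). Stk39 was at 54.1, 47.9, 43.4 and 44.5 CPM and at 51.6, 42.6, 51.1 and 44.7 CPM, a log2 fold change of 0.00 ± 0.10 (SE; edgeR adjusted p = 0.999). The smallest SE of the 10 in this table was that of Stk39, with kidneys of both groups interleaved.

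Trpv5 was at 20.7, 18.3, 24.7 and 24.0 CPM with control compound and at 21.8, 42.5, 23.6 and 20.98 CPM with ABT-263. Only animal 16 was above the control-compound range, and the log2 fold change was 0.31 ± 0.22 (SE; edgeR adjusted p = 0.856) with it and 0.02 without it. Calb1 was at 331, 245, 342 and 308 CPM and at 305, 123, 362 and 300.1 CPM. Animal 16 was the lowest of the 8 kidneys, and the log2 fold change of −0.17 ± 0.29 (SE; edgeR adjusted p = 0.950) turned to 0.08 without it. Slc8a1 was at 173, 134, 152 and 131 CPM and at 148, 90.96, 170.4 and 162 CPM. Its log2 fold change of −0.05 ± 0.18 (SE; edgeR adjusted p = 0.982) turned to 0.12 without animal 16, the lowest of the 8 kidneys.

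Pvalb was at 4.11, 6.50, 6.00 and 4.44 CPM with control compound and at 3.17, 0.347, 6.68 and 3.73 CPM with ABT-263. The value of animal 16 rested on 6 counts. The log2 fold change was −0.59 ± 0.59 (SE; edgeR adjusted p = 0.898), and −0.21 without that kidney. Without ABT-263 animal 17, the highest of the 8 kidneys, it was −1.14. Trpm6 was at 26.1, 14.3, 17.1 and 17.1 CPM and at 17.1, 15.0, 26.9 and 21.2 CPM, with overlapping groups and a log2 fold change of 0.11 ± 0.22 (SE; edgeR adjusted p = 0.961). It was 0.31 without control-compound animal 6 and −0.07 without ABT-263 animal 17.

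In ABT-263 animal 16, 9 of the 10 genes were below their table mean. The log2 deviations were −2.98 for Pvalb, −1.17 for Calb1, −0.65 for Slc8a1, −0.42 for Klhl3 and −0.17 for Slc12a3, against 0.83 for Trpv5. Egf was at 353 CPM in this kidney, against 1014 to 1558 CPM in the other 7. Lcn2, an injury marker secreted by tubule cells, was at 254 CPM, against 15.4 to 47.8 CPM. Proximal tubule markers summed to 18115 CPM, against 19370 to 30628 CPM, and thick ascending limb markers to 5421 CPM, against 5672 to 7063 CPM. The long and short transcripts of this kidney differed by −0.02 in median log2 deviation, unlike those of LOY animal 8. The part of injury in its levels of the 10 genes was not tested.

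**Figure D5:**
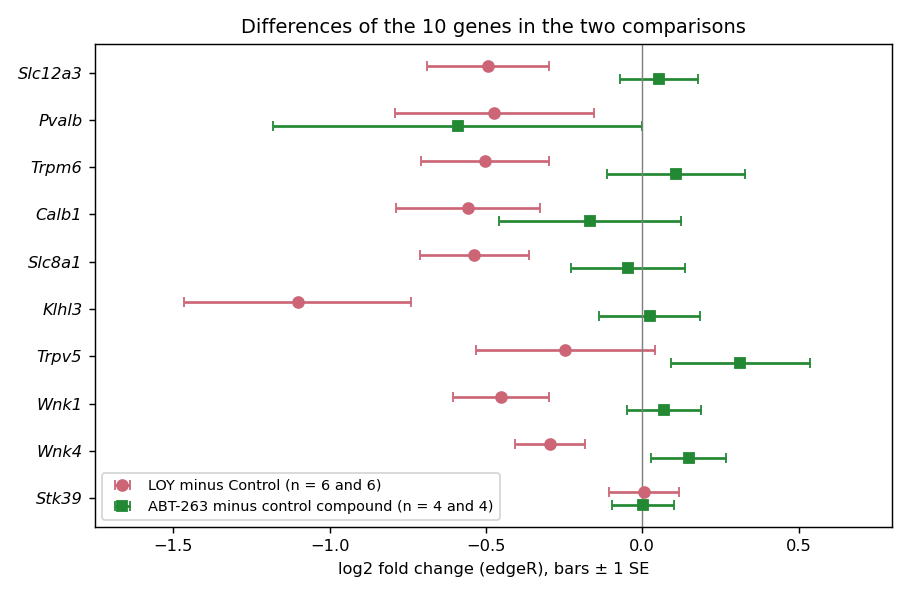
Log2 fold changes of the 10 genes, LOY minus Control (circles, n = 6 and 6) and ABT-263 minus control compound (squares, n = 4 and 4), with bars of 1 SE from edgeR. In the LOY comparison 9 of 10 values are below 0, with Klhl3 lowest at −1.10, and in the ABT-263 comparison the values run from −0.59 in Pvalb to 0.31 in Trpv5.

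No gene of the other 13 lists passed in edgeR with ABT-263. Of 141 tested entries on the lists, 19 had an unadjusted p under 0.05, against 5.91% of all genes, and 7 of the 19 were macrophage markers. DESeq2, which called 44 genes in all, called 1 of them, Lyz2. The median log2 fold change was −0.01 in the 23 other NCC regulators, where the potassium channel gene Kcnj10 was at −0.24 ± 0.08 (SE) and Sorl1 at 0.26 ± 0.09. It was −0.01 in the 13 calcium genes, with Klk1, the tissue kallikrein, at −0.44 ± 0.13, S100a10 at −0.29 ± 0.16 and Cyp27b1, the enzyme that activates vitamin D, at −1.21 ± 0.64. It was 0.04 in the 13 tested magnesium genes, with Egfr at 0.18 ± 0.08, Slc41a3 at 0.40 ± 0.19 and Trpm7 at 0.09 ± 0.08. The 12 further markers of the distal convoluted tubule had a median of −0.04, with Emx1 at −0.28 ± 0.11, Ppm1e at 0.37 ± 0.26 and Tmem213 at −0.14 ± 0.12. The macrophage markers had a median of −0.48, with 9 of 10 negative and Lyz2 at −0.84 ± 0.19, Cd74 at −0.52 ± 0.14 and C1qc at −0.53 ± 0.16. The injury markers had a median of −0.15, with Cd44 at −0.66 ± 0.26, Vcam1 at −0.64 ± 0.26 and Krt8 at −0.19 ± 0.15. Summed, the injury markers were at 2830 to 4244 CPM in the control-compound kidneys and at 1940, 2293 and 2724 CPM in ABT-263 animals 17, 15 and 18, below every control-compound kidney, while animal 16 was at the 21370 CPM given above.

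In the remaining lists the medians with ABT-263 were −0.04 for the thick ascending limb, 0.20 for principal and connecting tubule cells, 0.19 for intercalated cells, −0.04 for the proximal tubule, −0.08 for skeletal muscle, −0.07 for smooth muscle and 0.18 for endothelium. Their lowest p values belonged to Cldn16 (−0.25 ± 0.14, SE), Ptger3 (0.18 ± 0.20) and Kcnj1 (−0.15 ± 0.21) of the thick ascending limb, and to Aqp2 (0.64 ± 0.26), Scnn1a (−0.26 ± 0.15) and Fxyd4 (0.33 ± 0.23) of principal cells. In intercalated cells they belonged to Slc26a4 (0.32 ± 0.10), Slc4a9 (0.23 ± 0.11) and Aqp6 (0.24 ± 0.12), and in the proximal tubule to Slc13a3 (−0.32 ± 0.09), Slc5a12 (0.32 ± 0.11) and Cubn (0.20 ± 0.09). The rest were Mylpf (−0.50 ± 0.40) and Actn3 (0.35 ± 0.36) of skeletal muscle, Acta2 (−0.45 ± 0.11), Tagln (−0.43 ± 0.26) and Rgs5 (−0.25 ± 0.16) of smooth muscle, and Cdh5 (0.23 ± 0.11), Plvap (0.15 ± 0.10) and Tek (0.22 ± 0.17) of endothelium. Both comparisons ran in separate tables with no kidney in common by sample, and the LOY and ABT-263 differences of the 10 genes were not tested against each other.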

How the data were processed

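Kidney RNA was sequenced from 20 libraries, and the authors deposited whole-number read counts per gene in 2 tables. The submitters' processing notes name the genome build mm10. Which aligner, counter and annotation made the tables is not given in the sources used here. An entry without a gene name (0.223% to 0.401% of counts, LOY table) was left out. Groups came from the sample labels. No 2 replicates agreed within sampling noise.

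Each table was fitted alone with edgeR 4.0.16 in R 4.3.3 (TMM, minimum count 10 and minimum total 15 in filterByExpr, robust quasi-likelihood test, Benjamini-Hochberg over all genes tested, threshold 0.05). The SE is the log2 fold change divided by the root of F. The fit was tested on simulated data. Alternatives were other scalings, no filter, DESeq2 1.42.0, the animal number and each kidney left out. Correlations used 100000 permutations. Named were all 10 genes, every called gene of 13 other lists or at least the 3 with the lowest p, and the 5 genes most like Slc12a3. The values of 1 gene that this rule names are not reported here. The genes and lists were chosen with earlier results of these data known. Totals of 13332563 counts or more per kidney put few counts behind genes near 1 CPM.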

Additional observations from a re-analysis of the deposited data

Results flagged for a closer look

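Each of the 10 genes was checked in each of the 4 groups for a kidney set far apart from the others of its group by Dixon's criterion, 40 sets in all, and 2 sets met it. Chance alone marks about 1 in 20 groups, so about 2 of 40 would be marked by chance. The 10 genes were measured in the same kidneys, so the sets are not independent. The count therefore does not tell whether these 2 arose by chance.

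Trpm6 was at 18.1 CPM in LOY animal 18, against 8.90 to 12.2 CPM in the other LOY kidneys. Trpv5 was at 42.5 CPM in ABT-263 animal 16, against 20.98 to 23.6 CPM in the other ABT-263 kidneys, and that kidney also had the Havcr1 and Lcn2 levels given above. The cause was not tested in either case.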

How the results depend on the processing

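The count of genes past the threshold in the LOY comparison, 176 in edgeR, was 105 with library totals alone, 866 in DESeq2, 0 with the animal number above 10 as a term (1194 at an unadjusted p under 0.05), 451 among animals numbered above 10, 29 without LOY animals 8 and 10, and 1121 without LOY animal 8 and Control animal 3. It ran from 0 to 607 when each kidney was left out in turn, and the Control kidneys set both ends: 607 genes passed when animal 3 was absent, 0 when 16 or 17 was, 2 when 12 was, 3 when 11 was and 9 when 13 was. Without LOY animal 10, 9, 14 or 18 the count was 1, 96, 116 or 296. Of the 10 distal convoluted tubule genes, 1 passed in DESeq2 and 4 without LOY animal 8 and Control animal 3, a pair left out after seeing the data. None passed when any 1 kidney was left out, and the lowest adjusted p was then 0.0502 (Klhl3, without LOY animal 18, edgeR). With ABT-263, 0 genes became 44 in DESeq2, 388 without control-compound animal 6 and ABT-263 animal 16, and 0 to 9 with each kidney left out. None of the 10 genes passed in any of those fits.

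Some signs turned. In the LOY comparison Trpv5 was at 0.0218 among animals numbered above 10. Stk39 was at −0.00456 under median-ratio scaling, −0.0154 with no filter, −0.00461 in DESeq2, −0.0272 without LOY animals 8 and 10, −0.0070 without LOY animal 8 and Control animal 3, and −0.0537 to 0.0851 with each kidney left out. With ABT-263, leaving out control-compound animal 6 and ABT-263 animal 16 gave 0.12 for Calb1 (−0.17 with all kidneys), 0.21 for Slc8a1 (−0.05) and −0.00831 for Trpv5 (0.31), and Stk39 was at −0.00011 with no filter. With each kidney left out the log2 fold change ran from −0.00771 to 0.162 in Slc12a3, −0.0688 to 0.315 in Trpm6, −0.335 to 0.0783 in Calb1, −0.141 to 0.123 in Slc8a1, −0.0846 to 0.150 in Klhl3, −0.0153 to 0.165 in Wnk1 and −0.0386 to 0.0693 in Stk39. The r of Trpv5 with Slc12a3 was 0.0753 with library totals alone, against −0.0265. The cause was not tested.

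No paired analysis was possible because the groups compared share no animal number. Counts were fewest for Pvalb and Klhl3, with 6 and 15 in their lowest kidneys. Klhl3 had 15 to 231 counts per kidney in the LOY table and 774 to 1432 in the ABT-263 table, while library totals overlapped. The reason for that gap was not tested. It limits what can be read from the low place of Klhl3 per length and from its difference in the LOY table.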
